A study of Mus musculus with 24 samples.

Results

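The 10 genes described here encode fibrous collagens (Col1a1, Col1a2, Col3a1), a basement membrane collagen (Col4a1), the adhesive matrix protein fibronectin (Fn1), cytoskeletal proteins of matrix-producing and contractile cells (Vim, Acta2), a receptor of pericytes and fibroblasts (Pdgfrb), a growth factor (Tgfb1) and an inhibitor of matrix proteases (Timp1). They were chosen by symbol, as genes commonly read as fibrosis and matrix genes. Each of the 10 had 1 row among the 16921 genes of the deposited tables, and each was among the 15165 genes that passed the filter on low counts and were tested. RNA came from the kidney cortex of males (C57BL6/J background) at an age of 22 months. KO mice lack FGF21, a hormone of metabolism known to increase when dietary protein is low, and WT mice carry the gene. The question was how a low protein diet acts on the kidney with and without FGF21. The groups were KO_LP (KO mice, 5% casein), KO_NP (KO mice, 20% casein), WT_LP (WT mice, 5% casein) and WT_NP (WT mice, 20% casein), with 6 libraries each and 1 library per mouse. All mice ate freely, stayed on their diet from 3 months of age, and casein was the protein source in every diet. How the deletion was made is not given in the sources used here. Fgf21 was not analysed here, so the genotype labels were not checked on the deleted gene itself.

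Fibrosis is the build-up of extracellular matrix between kidney tubules and in glomeruli. The growth factor TGF beta, encoded by Tgfb1, acts through a pair of receptor kinases and SMAD transcription factors, and it is known for inducing collagen, fibronectin and smooth muscle actin in fibroblasts and pericytes. PDGF receptor beta marks pericytes, mesangial cells and fibroblasts, the main sources of fibrous collagen in the kidney, while TIMP1 blocks the metalloproteases that degrade matrix.

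The libraries tag the 3′ end of transcripts, so a level in CPM (counts scaled by library size and TMM factor) is compared between libraries and not between genes. Library totals averaged 12.3 ± 2.06 M counts in KO_LP, 13.6 ± 1.87 M in KO_NP, 16.6 ± 1.10 M in WT_LP and 16.5 ± 3.61 M in WT_NP (SD, n = 6 each), with a range of 8.47 to 21.1 M. A gene was called where edgeR's quasi-likelihood test gave a Benjamini-Hochberg adjusted p under 0.05 over all tested genes. All 17 proximal tubule markers were above 0 in every library, with a summed level of 12424 to 20902 CPM in KO_LP, 18938 to 23206 CPM in KO_NP, 13416 to 22874 CPM in WT_LP and 14806 to 23069 CPM in WT_NP. Markers of the medulla had 7 of 8 rows and were also present, at 1506 to 3216 CPM in KO_LP, 1648 to 2380 CPM in KO_NP, 1806 to 2746 CPM in WT_LP and 1948 to 3203 CPM in WT_NP. Of 6 adrenal cortex markers 2 had a row, and their sum did not exceed 2.13 CPM in any library.

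Individual libraries stood apart on these 10 genes. KO_LP 4, WT_LP 3 and WT_NP 1 were each the highest library of their group for 9 of the 10 genes. Their summed CPM over the 10 genes was 949 in KO_LP 4 (group median 508), 779 in WT_LP 3 (group median 456) and 1098 in WT_NP 1 (group median 405). KO_LP 1 was the lowest of its group for 9 of the 10 genes, and WT_LP 5 for 8. No single library led KO_NP, where the sum ran from 357 to 502 CPM. The numbers only name mice within a group. These libraries also differed beyond the 10 genes. Mitochondrial genes held 18.5% of counts in KO_LP 4 and 21.8% in WT_NP 1, the lowest of their groups, and 24.7% in WT_LP 3. That share was 18.5 to 26.3% in KO_LP, 26.4 to 30.5% in KO_NP, 24.2 to 27.2% in WT_LP and 21.8 to 27.25% in WT_NP. KO_LP 1 had the fewest counts, 8.47 M. What these differences contribute was not tested.

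None of the 10 genes was called in any of the 5 comparisons. For LP versus NP in KO, where 7.17% of all tested genes were called (3.59% higher and 3.58% lower), all 10 genes had a positive log2 fold, from 0.15 to 0.85 with a median of 0.46, while the median over all tested genes was 0.03 and 54.9% of them were positive. Pdgfrb had an unadjusted p under 0.05 there and the other 9 did not. For LP versus NP in WT, 0% of all tested genes were called (580 had an unadjusted p under 0.05, DESeq2 called 16 and limma voom 6). Of the 10 genes 4 were positive and 6 negative there, with a median of -0.01, and 0 had an unadjusted p under 0.05. The difference of these diet effects, KO minus WT, was also called for 0% of all tested genes (2430 at an unadjusted p under 0.05, DESeq2 called 117 and limma voom 0). It was positive for all 10 genes, with a median of 0.42, and Vim and Pdgfrb had an unadjusted p under 0.05.

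For KO versus WT on LP, 2.93% of all tested genes were called (1.35% higher and 1.59% lower). Of the 10 genes 8 were positive and Acta2 and Tgfb1 negative, with a median log2 fold of 0.29 and with 1 of them, Pdgfrb, at an unadjusted p under 0.05. For KO versus WT on NP, 0.574% of all tested genes were called, and the 10 genes were all negative, with a median of -0.21 and with Acta2 at an unadjusted p under 0.05. Comparisons that share a group are not independent of each other: KO_LP enters LP versus NP in KO and KO versus WT on LP, and WT_NP enters LP versus NP in WT and KO versus WT on NP. The directions turned when single libraries were left out. Without KO_LP 4 the median for LP versus NP in KO was 0.18, with 10 of 10 still positive, and 4 of 10 were positive for KO versus WT on LP. Without WT_NP 1 all 10 were positive for LP versus NP in WT, with a median of 0.51, and 6 of 10 were positive for KO versus WT on NP and for the difference of the diet effects. Without WT_LP 3, 1 of 10 was positive for LP versus NP in WT, with a median of -0.22.

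The directions also turned with the model on all 24 libraries. The immune covariate was the mean log2 CPM of the macrophage, T cell, and B and plasma cell markers. Median log2 folds of these lists for LP versus NP were 0.96, 1.15 and 1.61 in KO, and 0.315, -0.51 and -1.21 in WT. The covariate is therefore not independent of diet and genotype. With the mean of the immune markers as a covariate, 1 of 10 was positive for LP versus NP in KO (median -0.38), for the difference of the diet effects (-0.91) and for KO versus WT on LP (-0.68), while 9 of 10 were positive for LP versus NP in WT (0.41) and 6 of 10 for KO versus WT on NP (0.20). With 1 surrogate variable the counts were 1 of 10 for LP versus NP in KO (-0.39), for the difference (-0.73) and for KO versus WT on LP (-0.42), and 7 of 10 for LP versus NP in WT (0.19) and for KO versus WT on NP (0.22). With limma voom, which weights libraries by quality, the median of the difference was 0.15, and 8 of 10 were positive for LP versus NP in WT (0.23) and 6 of 10 for KO versus WT on NP (0.11). On the deposited normalized values 5 of 10 were positive for KO versus WT on NP. Without WT_NP 1, KO_LP 4 and KO_LP 6 together, 3 of 10 were positive for the difference (-0.20).

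**Figure D1:**
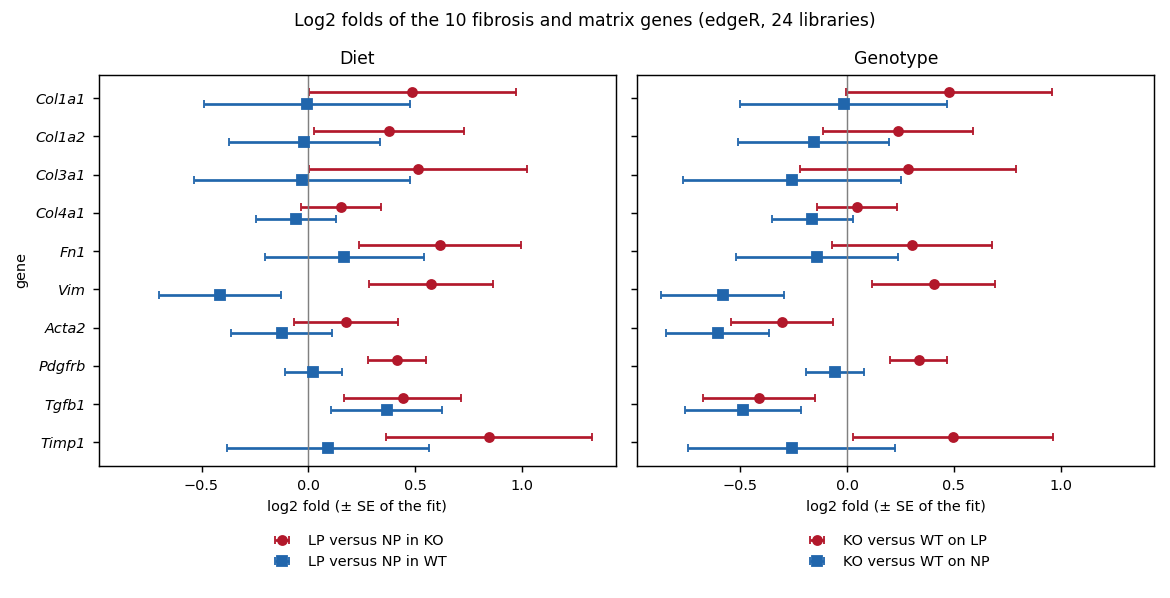
Log2 folds of the 10 genes (x axis, ± SE of the edgeR fit on 24 libraries), with genes down the page; the left panel gives LP versus NP in KO (circles) above LP versus NP in WT (squares), the right panel KO versus WT on LP (circles) above KO versus WT on NP (squares). All 10 folds of LP versus NP in KO lie right of 0, between 0.15 and 0.85, and none of the 40 folds shown was called.

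Collagen I is the main fibre of scar tissue and is built from the chains encoded by Col1a1 and Col1a2. Col1a1 (ENSMUSG00000001506, chromosome 11, 94936224 to 94953042, GRCm38, plus strand) ran from 21.3 CPM in KO_LP 1 to 124 CPM in KO_LP 4 with a median of 46.5 CPM in KO_LP, against 26.3 to 53.8 CPM with a median of 38.6 CPM in KO_NP. In wild type it ran from 13.1 to 101 CPM with a median of 32.1 CPM in WT_LP, against 16.1 to 118 CPM with a median of 26.9 CPM in WT_NP. The top library of WT_NP, WT_NP 1, was above every WT_LP library, and 5 of the 6 WT_NP libraries lay at or below 32.8 CPM, so the groups overlapped in both genotypes. Group means were 56.2 ± 36.5 CPM in KO_LP, 40.3 ± 9.86 CPM in KO_NP, 40.6 ± 30.6 CPM in WT_LP and 40.6 ± 38.4 CPM in WT_NP (SD, n = 6 each). LP versus NP gave a log2 fold of 0.49 in KO (SE 0.484, edgeR adjusted p = 0.539, above the KO_NP mean in 4 of 6 libraries) and -0.0045 in WT (SE 0.482, adjusted p = 1). In KO it was 0.09 without KO_LP 4, and in WT it was 0.69 without WT_NP 1 and -0.51 without WT_LP 3.

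Col1a2 (ENSMUSG00000029661, chromosome 6, 4504814 to 4541544, plus strand) had the same mice as Col1a1 at the ends of KO_LP. It ran from 63.8 CPM in KO_LP 1 to 239.8 CPM in KO_LP 4 with a median of 120.5 CPM in KO_LP, against 80.7 to 139 CPM with a median of 90.5 CPM in KO_NP. In WT_LP the range was 55.0 to 202 CPM with a median of 105 CPM, against 66.9 to 269.6 CPM with a median of 86.7 CPM in WT_NP. The groups overlapped, with 2 KO_LP libraries above and 2 below the whole KO_NP range. Its log2 fold for LP versus NP was 0.38 in KO (SE 0.353, edgeR adjusted p = 0.510) and -0.02 in WT (SE 0.352, adjusted p = 1). In KO it was 0.12 without KO_LP 4, and in WT it was 0.45 without WT_NP 1 and -0.27 without WT_LP 3.

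Col3a1 (ENSMUSG00000026043, chromosome 1, 45311538 to 45349706, plus strand) encodes collagen III, which forms fine fibres beside collagen I. It ran from 13.9 CPM in KO_LP 6 to 111 CPM in KO_LP 4 with a median of 44.8 CPM in KO_LP, against 23.1 to 43.3 CPM with a median of 35.0 CPM in KO_NP. In wild type the values were 12.7 to 94.2 CPM with a median of 32.3 CPM in WT_LP, against 16.2 to 123 CPM with a median of 26.7 CPM in WT_NP. Among KO_LP mice 3 were above and 2 below all KO_NP mice, so KO_LP was wider on both sides. Its diet folds (log2, LP versus NP) were 0.51 in KO (SE 0.512, edgeR adjusted p = 0.539) and 0.07 without KO_LP 4, and -0.03 in WT (SE 0.506, adjusted p = 1), 0.73 without WT_NP 1 and -0.49 without WT_LP 3. Of its exon bases 141 also belong to the annotated gene Gm47302 on the same strand, so reads there could not be assigned to either gene by position.

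RefSeq sequences before the transcript start are shown for Col3a1, Tgfb1 and Timp1, the members whose window of 250 bases overlaps no annotated exon, to set a fibrous collagen beside the growth factor and the protease inhibitor. The RefSeq table (GRCm38.p6) held a window for 7 of the 10 genes. All 3 lie on the plus strand and are printed 5′ to 3′: Col3a1 at chr1:45311288-45311537, Tgfb1 at chr7:25686752-25687001 and Timp1 at chrX:20869916-20870165. Capitals mark matches, on either strand, to the motifs searched, which were CCAAT for the CCAAT box, GGGCGG for the GC box, TGANTCA for AP-1 sites, TATAA for the TATA box, and the CArG box. Overlapping TATAA matches of both strands are run together in Col3a1.
Col3a1: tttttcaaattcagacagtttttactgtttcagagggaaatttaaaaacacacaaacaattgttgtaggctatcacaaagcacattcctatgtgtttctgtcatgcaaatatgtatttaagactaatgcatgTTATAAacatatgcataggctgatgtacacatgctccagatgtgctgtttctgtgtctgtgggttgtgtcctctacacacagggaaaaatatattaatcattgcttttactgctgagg
Tgfb1: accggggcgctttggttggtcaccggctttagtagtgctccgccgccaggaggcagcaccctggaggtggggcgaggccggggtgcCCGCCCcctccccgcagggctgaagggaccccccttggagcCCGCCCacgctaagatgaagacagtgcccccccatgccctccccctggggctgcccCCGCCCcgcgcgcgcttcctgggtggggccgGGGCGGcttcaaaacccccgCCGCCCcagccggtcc
Timp1: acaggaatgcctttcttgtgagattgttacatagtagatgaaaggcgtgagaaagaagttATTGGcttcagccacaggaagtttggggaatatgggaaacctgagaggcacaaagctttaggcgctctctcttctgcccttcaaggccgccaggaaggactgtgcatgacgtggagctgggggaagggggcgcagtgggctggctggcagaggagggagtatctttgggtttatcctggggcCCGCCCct
The Col3a1 window held TATAA on both strands, between 118 and 113 bases before the start, and no GGGCGG. The Tgfb1 window held GGGCGG 5 times, the nearest at 16 bases before the start, and the Timp1 window held CCAAT 190 bases and GGGCGG 8 bases before the start. None of these windows held TGANTCA or a CArG box. Over 32851 windows of the same length in that table, CCAAT occurred in 33.8%, GGGCGG in 32.7%, TATAA in 22.8%, TGANTCA in 6.75% and the CArG box in 1.47%. A match describes letters and not binding.

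Ratios between the 3 fibrous collagen genes, which do not depend on library size, showed no called difference between diets. The log2 ratio of Col1a1 to Col1a2 averaged -1.31 ± 0.214 in KO_LP and -1.33 ± 0.220 in KO_NP (SD, n = 6 each), a difference of 0.03 with an exact permutation p of 0.833. In wild type it averaged -1.61 ± 0.348 in WT_LP and -1.63 ± 0.280 in WT_NP (exact permutation p = 0.926). The ratio of Col3a1 to Col1a1 differed by -0.05 in KO (exact permutation p = 0.877) and by 0.04 in WT (exact permutation p = 0.805). The 6 two-sided ratio tests had adjusted p-values of 0.922 to 0.926, and the smallest p that 6 against 6 mice allow is 0.00216.

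**Figure D2:**
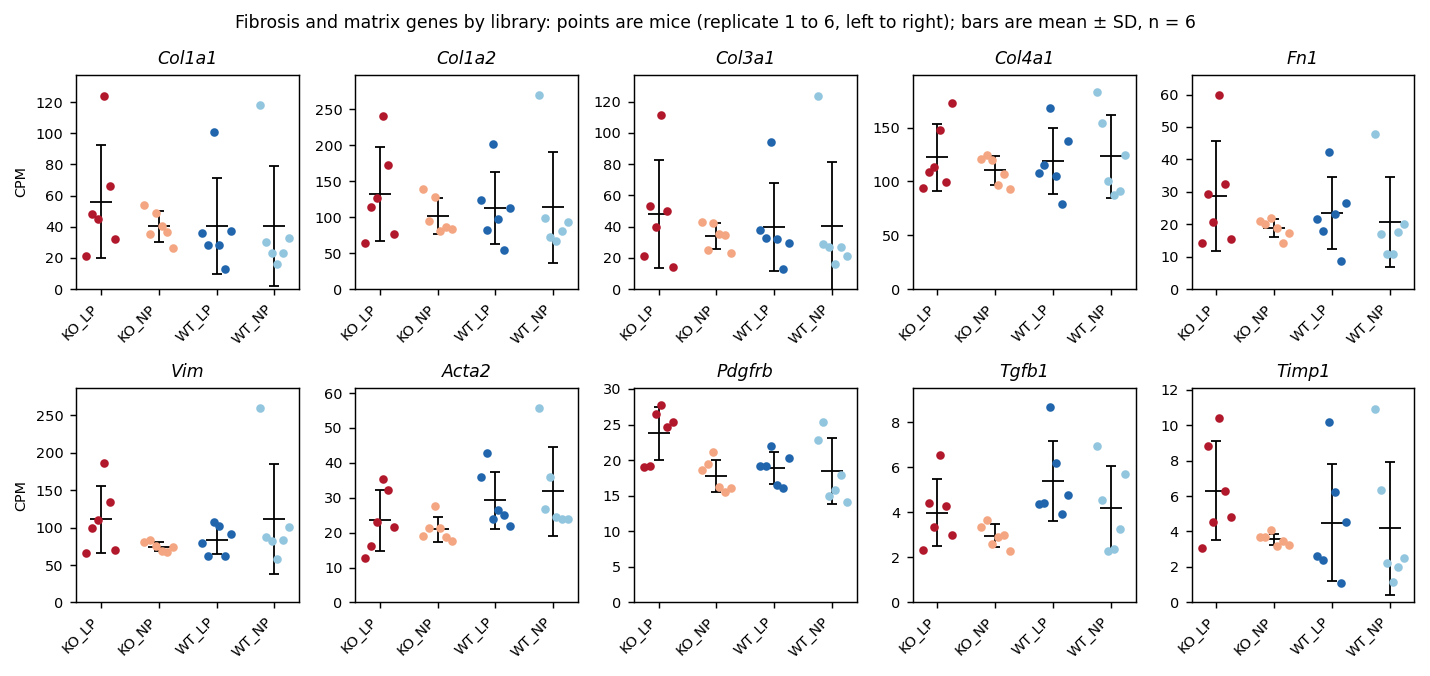
CPM of the 10 genes (y axis, 1 panel per gene) in KO_LP, KO_NP, WT_LP and WT_NP; points are mice in the order of their replicate number and bars are mean ± SD over 6 mice. Single high mice stand out in KO_LP, WT_LP and WT_NP, with Col1a1 at 124, 101 and 118 CPM, while KO_NP stays within 26.3 to 53.8 CPM.

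Col4a1 (ENSMUSG00000031502, chromosome 8, 11198423 to 11312826, minus strand) encodes the alpha 1 chain of collagen IV, the network of tubular and glomerular basement membranes. It varied less than the fibrous collagens, from 93.7 to 173 CPM with a median of 111 CPM in KO_LP, against 93.3 to 125 CPM with a median of 113 CPM in KO_NP. In WT_LP it was at 79.4 to 168 CPM with a median of 111 CPM, against 87.2 to 183 CPM with a median of 112 CPM in WT_NP. The highest KO_LP mouse was KO_LP 6 and not KO_LP 4, and the groups overlapped over most of their range. Its log2 fold for LP versus NP was 0.15 in KO (SE 0.188, edgeR adjusted p = 0.630) and -0.06 in WT (SE 0.188, adjusted p = 1), the smallest of the 10 genes in KO. Without KO_LP 6 it was 0.03 in KO.

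Col4a2, its partner chain, starts 21 bases away on the opposite strand, and 22 exon bases are shared. It averaged 84.2 ± 23.6 CPM in KO_LP, 68.8 ± 5.75 CPM in KO_NP, 69.1 ± 14.1 CPM in WT_LP and 70.0 ± 17.4 CPM in WT_NP (SD, n = 6 each), with a log2 fold for LP versus NP in KO of 0.29 (edgeR adjusted p = 0.255). The log2 ratio of Col4a1 to Col4a2 averaged 0.55 ± 0.148 in KO_LP and 0.67 ± 0.144 in KO_NP (exact permutation p = 0.154), and 0.76 ± 0.138 in WT_LP and 0.79 ± 0.155 in WT_NP (exact permutation p = 0.723, n = 6 each). Over the 24 libraries the log2 CPM of both genes had a Pearson r of 0.858 and a Spearman rho of 0.839, each with a permutation p of 1e-05, the smallest that 100000 resamples can give (adjusted p = 3e-05 and 4e-05). Without the mice farthest from the median, WT_NP 1 and KO_LP 6, r was 0.816, and within groups it was 0.922 in KO_LP, 0.581 in KO_NP, 0.933 in WT_LP and 0.948 in WT_NP.

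Fn1 (ENSMUSG00000026193, chromosome 1, 71585520 to 71653200, minus strand) encodes fibronectin, which links matrix to integrins. It ran from 14.4 to 59.8 CPM with a median of 24.96 CPM in KO_LP, against 14.1 to 22.0 CPM with a median of 19.5 CPM in KO_NP. In wild type it ran from 8.57 to 42.2 CPM with a median of 22.4 CPM in WT_LP, against 10.8 to 47.9 CPM with a median of 17.3 CPM in WT_NP. Among KO_LP mice 3 were above the highest KO_NP mouse and the other 3 lay within the KO_NP range. On the log2 scale LP versus NP gave 0.62 in KO (SE 0.379, edgeR adjusted p = 0.296), 0.26 without KO_LP 4, and 0.17 in WT (SE 0.374, adjusted p = 1), 0.62 without WT_NP 1. Its exons share 292 bases with Apol7d on the opposite strand, and whether the counting used strand is not given in the sources used here.

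Vim (ENSMUSG00000026728, chromosome 2, 13573927 to 13582826, plus strand) encodes vimentin, an intermediate filament of mesenchymal and immune cells that injured tubule cells also make. It ran from 65.8 to 186 CPM with a median of 106 CPM in KO_LP, against 67.2 to 83.0 CPM with a median of 74.8 CPM in KO_NP. In WT_LP it was at 61.6 to 108 CPM with a median of 85.5 CPM, against 58.5 to 259.7 CPM with a median of 85.0 CPM in WT_NP. In KO_LP 4 mice were above and 1 below every KO_NP mouse, and in wild type the medians lay within 1 CPM of each other while WT_NP 1 was at 259.7 CPM. The log2 fold for LP versus NP was 0.57 in KO (SE 0.289, edgeR adjusted p = 0.195, 0.37 without KO_LP 4) and -0.41 in WT (SE 0.287, adjusted p = 1, 0.03 without WT_NP 1). The difference of these effects, 0.99 (SE 0.407, unadjusted p = 0.0234), was the largest of the 10 genes and was not called (edgeR adjusted p = 0.254), and without WT_NP 1 it was 0.55.

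Acta2 (ENSMUSG00000035783, chromosome 19, 34241090 to 34255590, minus strand) encodes smooth muscle alpha actin, found in arteries and in myofibroblasts. It ran from 12.8 to 35.4 CPM with a median of 22.3 CPM in KO_LP, against 17.5 to 27.6 CPM with a median of 20.2 CPM in KO_NP. Wild type mice had 22.0 to 42.7 CPM with a median of 25.7 CPM in WT_LP, against 23.8 to 55.9 CPM with a median of 25.6 CPM in WT_NP. The genotypes lay further apart than the diets in their medians, and 5 of 6 KO_NP mice were below the lowest WT_NP mouse. KO versus WT on NP gave a log2 fold of -0.61 (SE 0.241, unadjusted p = 0.0193, edgeR adjusted p = 0.286, below the WT_NP mean in 6 of 6 libraries) and -0.37 without WT_NP 1. On LP it was -0.31 (SE 0.239, adjusted p = 0.484), and for LP versus NP in KO it was 0.18 (SE 0.243, adjusted p = 0.672) and 0.02 without KO_LP 4.

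Pdgfrb (ENSMUSG00000024620, chromosome 18, 61045150 to 61085061, plus strand) encodes the receptor through which PDGF drives pericytes and fibroblasts to divide and migrate. It ran from 19.0 to 27.8 CPM with a median of 25.02 CPM in KO_LP, against 15.5 to 21.1 CPM with a median of 17.4 CPM in KO_NP. In wild type it was at 16.1 to 22.0 CPM with a median of 19.2 CPM in WT_LP, against 14.1 to 25.3 CPM with a median of 16.9 CPM in WT_NP. In KO_LP 4 mice were above every KO_NP mouse and above every WT_LP mouse, and KO_LP 1 and KO_LP 2, at 19.0 and 19.1 CPM, lay within the range of KO_NP. The log2 fold for LP versus NP in KO was 0.42 (SE 0.135, unadjusted p = 0.00509, edgeR adjusted p = 0.0579), above the KO_NP mean in 6 of 6 libraries, and it stayed between 0.37 and 0.47 with each of the 24 libraries left out. This gene had the lowest p of the 10 and stood near the threshold. It was called by the DESeq2 Wald test (adjusted p = 0.0426), by limma voom (0.0375), with a filter of 5 CPM (0.0473) and with the 12 KO libraries alone (0.0449). It was also called without 1 of 4 single libraries, where the adjusted p over all 24 omissions ran from 0.0304 to 0.155. It was not called with DESeq2 size factors, without a filter on low counts, or on the deposited normalized values. Nor was it called with the immune covariate, with 1 surrogate variable, or without WT_NP 1, KO_LP 4 and KO_LP 6 together. For KO versus WT on LP the log2 fold was 0.33 (SE 0.134, adjusted p = 0.153), for LP versus NP in WT 0.02 (SE 0.134, adjusted p = 1), and for the difference of the diet effects 0.39 (SE 0.191, adjusted p = 0.311).

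Tgfb1 (ENSMUSG00000002603, chromosome 7, 25687002 to 25705077, plus strand) encodes the growth factor itself, whose activity also depends on release from a latent form that RNA does not show. It was low, at 19 to 157 counts per library. It ran from 2.33 to 6.55 CPM with a median of 3.82 CPM in KO_LP, against 2.27 to 3.67 CPM with a median of 2.96 CPM in KO_NP. In WT_LP it was at 3.92 to 8.66 CPM with a median of 4.59 CPM, against 2.28 to 6.93 CPM with a median of 3.90 CPM in WT_NP. Its log2 folds for LP versus NP were positive in both genotypes, 0.44 in KO (SE 0.275, edgeR adjusted p = 0.299, 0.24 without KO_LP 4) and 0.37 in WT (SE 0.260, adjusted p = 1, 0.58 without WT_NP 1 and 0.18 without WT_LP 3). Its difference of diet effects, 0.07 (SE 0.377, adjusted p = 0.938), was the smallest of the 10. Group means were lower in KO than in WT mice on both diets, with a log2 fold of -0.41 on LP (SE 0.263, adjusted p = 0.377) and -0.49 on NP (SE 0.272, adjusted p = 0.470), neither called.

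Timp1 (ENSMUSG00000001131, chromosome X, 20870166 to 20874735, plus strand) encodes a secreted inhibitor of metalloproteases. At 17 to 209 counts per library it was also low, with 3.07 to 10.4 CPM and a median of 5.53 CPM in KO_LP, against 3.16 to 4.07 CPM and a median of 3.56 CPM in KO_NP. In wild type it ran from 1.09 to 10.2 CPM with a median of 3.57 CPM in WT_LP, against 1.13 to 10.9 CPM with a median of 2.35 CPM in WT_NP. In KO_LP 5 of 6 mice were above every KO_NP mouse and KO_LP 1 was below all of them, while both wild type groups ran below and above the KO_NP range. Its log2 fold for LP versus NP in KO, 0.85 (SE 0.483, edgeR adjusted p = 0.257), was the largest of the 10 genes and was not called. It was called with the 12 KO libraries alone (adjusted p = 0.0493), and it was 0.64 without KO_LP 4. In WT the fold was 0.09 (SE 0.471, adjusted p = 1) and 0.65 without WT_NP 1, and their difference was 0.75 (SE 0.674, adjusted p = 0.600).

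The SD of log2 CPM over 6 mice had a median over the 10 genes of 0.60 in KO_LP, 0.23 in KO_NP, 0.52 in WT_LP and 0.73 in WT_NP. Over all tested genes that median was 0.27 in KO_LP, 0.21 in KO_NP, 0.22 in WT_LP and 0.24 in WT_NP. Among the 10 genes Timp1 in WT_NP had an SD of 1.15 and Col3a1 in KO_LP one of 1.05, whereas Pdgfrb stayed at 0.24 in KO_LP, 0.18 in KO_NP, 0.17 in WT_LP and 0.34 in WT_NP. KO_NP had the lowest SD of the 4 groups for 9 of the 10 genes, with Pdgfrb, lowest in WT_LP, as the exception. No test of these spreads was made.

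**Figure D3:**
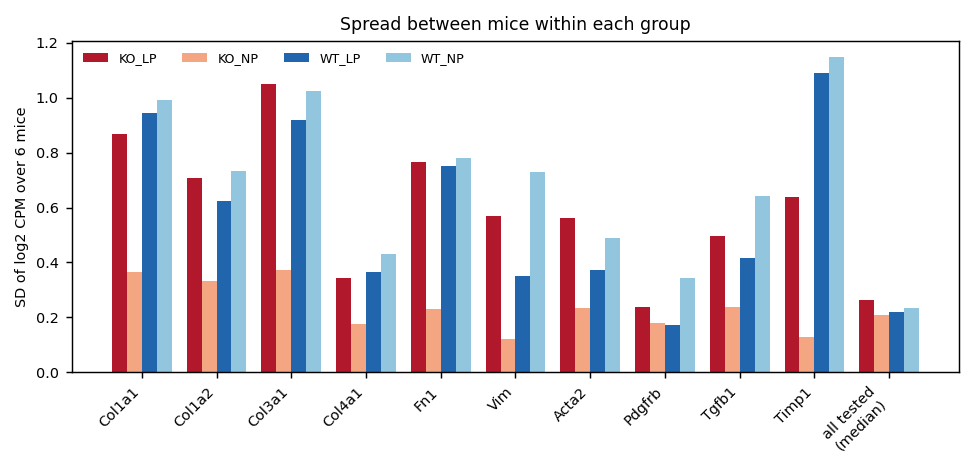
SD of log2 CPM over 6 mice (y axis) for each of the 10 genes and, at the right, the median over all 15165 tested genes, in KO_LP, KO_NP, WT_LP and WT_NP. Most members exceed the median gene in KO_LP, WT_LP and WT_NP, and KO_NP, with a member median of 0.23, lies near the median gene.

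Mice high in one fibrous collagen were high in the others. Over the 24 libraries the log2 CPM of Col1a1 and Col1a2 had a Pearson r of 0.956 and a Spearman rho of 0.900 (permutation p = 1e-05 for both, adjusted p = 3e-05 for r and 4e-05 for rho over 8 relations). Without KO_LP 4 and WT_NP 1 r was 0.926, and within groups it was 0.982 in KO_LP, 0.801 in KO_NP, 0.980 in WT_LP and 0.989 in WT_NP. Timp1 followed Col1a1 with r = 0.849 and rho = 0.763 (permutation p = 1e-05 and 5e-05, adjusted p = 3e-05 and 0.000133), r = 0.794 without the same mice and 0.867 in KO_LP, 0.597 in KO_NP, 0.862 in WT_LP and 0.885 in WT_NP. Pdgfrb and Col1a1 had r = 0.605 and rho = 0.592 (permutation p = 0.0015 and 0.00266, adjusted p = 0.00223 and 0.00426), r = 0.527 without KO_LP 4 and KO_LP 3, and 0.617 in KO_LP, 0.564 in KO_NP, 0.875 in WT_LP and 0.528 in WT_NP. Acta2 and Col1a1 had r = 0.340 and rho = 0.0748 (permutation p = 0.105 and 0.729, the same after adjustment), with r = 0.0467 without WT_NP 1 and KO_LP 1, and with 0.864 in KO_LP, 0.512 in KO_NP, -0.172 in WT_LP and 0.821 in WT_NP.

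Tgfb1 and Col1a1 had r = 0.608 and rho = 0.483 (permutation p = 0.00167 and 0.018, adjusted p = 0.00223 and 0.0235). Without WT_LP 3 and WT_NP 1 r was 0.420, and within groups it was 0.973 in KO_LP, 0.418 in KO_NP, 0.828 in WT_LP and 0.833 in WT_NP. The genes most like Col1a1 over the 24 libraries were Col1a2 (r = 0.956), the fibroblast cadherin Cdh11 (0.928), Fn1 (0.927), Col3a1 (0.924) and the proteoglycan biglycan, Bgn (0.907). Those most like Timp1 were the NF-kappa B subunit Relb (r = 0.925), the chemokine Ccl7 (0.906), Dcdc2a (0.903), the NF-kappa B inhibitor Nfkbie (0.891) and the basement membrane collagen Col18a1 (0.887). Col18a1 was also among the genes most like Col4a1 (r = 0.817), after Col4a2. These are descriptions over libraries that share depth and tissue composition. The permutation p-values of correlations pool the 4 groups, so they do not measure the relation between mice within a group.

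**Figure D4:**
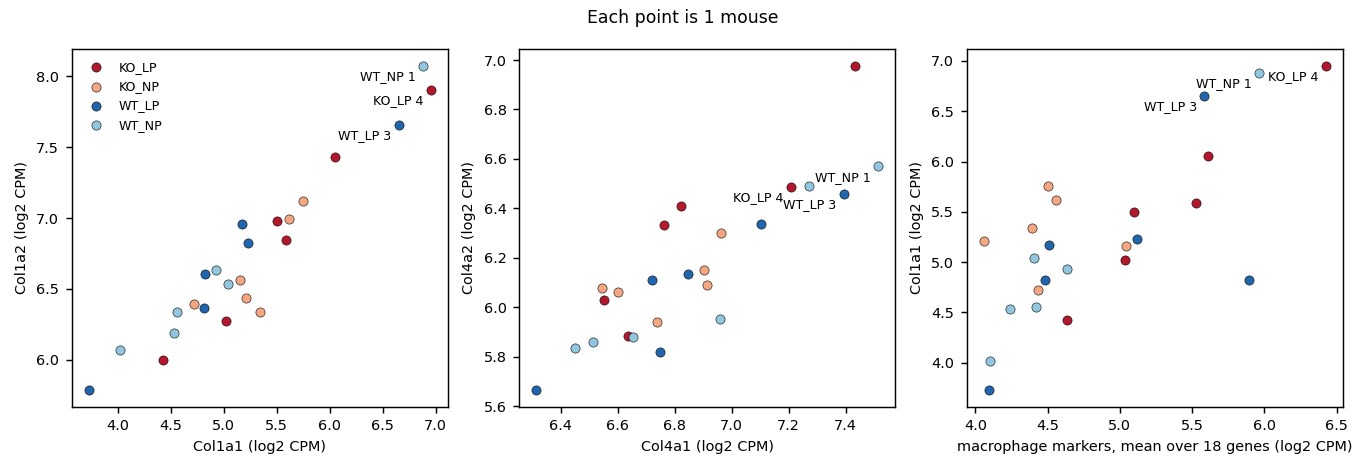
Log2 CPM per mouse, coloured by KO_LP, KO_NP, WT_LP and WT_NP, of Col1a2 against Col1a1 (left), Col4a2 against Col4a1 (middle) and Col1a1 against the mean of 18 macrophage markers (right). KO_LP 4, WT_LP 3 and WT_NP 1 hold the top corner of the left panel, where r was 0.956, and are among the mice with high macrophage markers at the right, where r was 0.746.

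In bulk cortex, fewer cells of a type and less RNA per cell cannot be told apart. All 18 macrophage markers were above 0 in every library, with a sum of 770 to 2738 CPM in KO_LP, 554 to 1009 CPM in KO_NP, 560 to 1829 CPM in WT_LP and 586 to 2069 CPM in WT_NP. KO_LP 4 and WT_NP 1 had the highest sums of their groups, and in WT_LP the highest was WT_LP 4, before WT_LP 3 with 1535 CPM. For LP versus NP in KO 4 of the 18 rose, among them Cd14, Cd74 and C1qa, and the median log2 fold of the 18 was 0.96. Over 24 omissions of a single library Cd14 was called in 21, Cd74 in 12 and C1qa in 10. The mean log2 CPM of the macrophage markers and Col1a1 had r = 0.746 and rho = 0.627 (permutation p = 7e-05 and 0.00165, adjusted p = 0.00014 and 0.0033), r = 0.583 without KO_LP 4 and WT_NP 1, and within groups 0.975 in KO_LP, 0.0241 in KO_NP, 0.608 in WT_LP and 0.978 in WT_NP. With the mean of the immune markers as a covariate, the log2 folds for LP versus NP in KO were -0.996 for Col1a1 (edgeR adjusted p = 0.0940), 0.18 for Pdgfrb (0.645) and -0.43 for Timp1 (0.643). What immune cells contribute to the folds was not tested.

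Of 17 injury markers, 1 of which is Vim, 9 rose for LP versus NP in KO, with a median log2 fold of 1.15, and their sum was 1624 to 4334 CPM in KO_LP and 967 to 1471 CPM in KO_NP, without overlap. In wild type the sums were 1084 to 3754 CPM in WT_LP and 955 to 3248 CPM in WT_NP, and 0 of 17 passed. For KO versus WT on NP 16 of 17 were negative, with a median of -0.59, and Cryab fell. For KO versus WT on LP 16 of 17 were positive, with a median of 0.57, while Il34 rose and Cryab fell. Krt20, a keratin of injured tubules, had a log2 fold of 2.86 (edgeR adjusted p = 0.0228) in KO, and the phosphate and glucose transporters Slc34a1 and Slc5a2 of the proximal tubule fell by 0.68 (0.0371) and 0.69 (0.0420). Krt20 was called in 23 of 24 omissions of a single library, and Slc34a1 and Slc5a2 in 17 each. All 17 proximal tubule markers were negative in KO, with a median of -0.31, and 2 of them fell. Their mean and Col1a1 had r = -0.533 and rho = -0.475 (permutation p = 0.00779 and 0.0205, adjusted p = 0.0089 and 0.0235), r = -0.636 without KO_LP 6 and KO_LP 4, and -0.272 in KO_LP, -0.157 in KO_NP, -0.673 in WT_LP and -0.947 in WT_NP. Their part in the values of the 10 genes was not tested.

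T cell markers (13 of 14 tested, all positive for LP versus NP in KO) summed to 56.7 to 194 CPM in KO_LP, 26.8 to 64.8 CPM in KO_NP, 24.96 to 110 CPM in WT_LP and 36.5 to 122 CPM in WT_NP. Cd3e rose for LP versus NP in KO, and was called in 11 of 24 omissions of a single library. B and plasma cell markers (10 of 11 tested, Cd79a at 0 in some libraries) summed to 1678 to 20880 CPM in KO_LP, 1686 to 4018 CPM in KO_NP, 549 to 3151 CPM in WT_LP and 1197 to 15841 CPM in WT_NP. For LP versus NP in KO all 10 were positive and Xbp1 rose, while in WT 9 of 10 were negative and 0 were called. For KO versus WT, Jchain, Igkc and Tnfrsf17 rose on LP, and Xbp1 fell on NP. Over 24 omissions of a single library Tnfrsf17 was called in 23, Jchain in 17 and Igkc in 5 on LP, and Xbp1 in 7 on NP. Of 12 endothelial markers 0 passed for LP versus NP in KO, with a median of 0.11. KO_LP 4 had the lowest endothelial sum of KO_LP (496 CPM). For KO versus WT on LP all 12 were negative, with a median of -0.23, and Eng fell. For KO versus WT on NP 11 of 12 were negative, with a median of -0.20, and 0 were called. Adipocyte markers had 4 of 7 rows, with Adipoq, Cfd and Cidec at 0 in some libraries, and summed to 96.7 to 439 CPM in KO_LP, 58.9 to 156 CPM in KO_NP, 99.6 to 141 CPM in WT_LP and 89.7 to 125 CPM in WT_NP. Whether these cells contributed to the folds was not tested.

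Other genes that build and crosslink collagen gave 1 call for LP versus NP in KO. Of 14 genes for fibrillar and associated collagens, which include Col1a1, Col1a2 and Col3a1, 0 were called, with a median log2 fold of 0.29, 13 positive and an unadjusted p under 0.05 for 0. Of 16 tested genes for collagen processing and crosslinking 1 rose, with a median of 0.27. This was Lox, the lysyl oxidase that crosslinks collagen and elastin, at 3.82 to 34.3 CPM in KO_LP, against 2.69 to 4.64 CPM in KO_NP, 1.51 to 9.62 CPM in WT_LP and 2.26 to 11.9 CPM in WT_NP. In KO_LP 5 of 6 mice were above every KO_NP mouse. The log2 fold of Lox was 1.79 (SE 0.534, edgeR adjusted p = 0.0448, higher in 6 of 6 libraries). It was 1.09 without KO_LP 6, and Lox was called in 13 of 24 omissions of a single library. The hydroxylase Plod3, with a log2 fold of 0.25 (adjusted p = 0.0666), and the glycosyltransferase Colgalt1, with 0.30 (adjusted p = 0.128), were not called.

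Matrix proteases and their inhibitors, 23 tested and Timp1 among them, had a median log2 fold of 0.51 for LP versus NP in KO, with 2 that rose and 0 that fell. Mmp7, matrilysin, which is made by injured tubule cells, was at 3.75 to 18.5 CPM in KO_LP, against 0.652 to 1.90 CPM in KO_NP, 0.543 to 8.33 CPM in WT_LP and 0.414 to 6.93 CPM in WT_NP. All KO_LP mice were above all KO_NP mice, while both wild type groups overlapped each other. Its log2 fold was 2.89 (SE 0.666, edgeR adjusted p = 0.0232, higher in 6 of 6 libraries). Mmp11, stromelysin 3, averaged 12.3 ± 2.30 CPM in KO_LP, 7.75 ± 1.13 CPM in KO_NP, 7.47 ± 2.24 CPM in WT_LP and 7.83 ± 2.53 CPM in WT_NP (SD, n = 6 each). It rose under LP in KO mice (log2 fold 0.68, SE 0.195, edgeR adjusted p = 0.0402) and for KO versus WT on LP (0.73, SE 0.193, adjusted p = 0.0413), each in 6 of 6 libraries. Mmp19 had a log2 fold of 1.08 in KO (adjusted p = 0.0596) and was not called.

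Among basement membrane genes 1 of 19 rose for LP versus NP in KO and 0 fell, with a median of 0.21. Agrn, encoding the heparan sulfate proteoglycan agrin, averaged 76.2 ± 19.9 CPM in KO_LP, 55.2 ± 3.10 CPM in KO_NP, 58.8 ± 11.6 CPM in WT_LP and 58.8 ± 10.1 CPM in WT_NP (SD, n = 6 each), with a log2 fold of 0.47 (edgeR adjusted p = 0.0436). For KO versus WT on LP the laminin chain Lama5 rose (0.45, adjusted p = 0.0362) and Npnt fell by 0.62 (adjusted p = 0.00603). Npnt encodes nephronectin, a ligand of integrin alpha 8 in kidney development, and was at 29.6 to 52.8 CPM in KO_LP, against 57.7 to 83.8 CPM in WT_LP. Those ranges did not overlap, and on NP it averaged 45.6 ± 4.20 CPM in KO_NP and 63.5 ± 7.67 CPM in WT_NP (SD, n = 6 each), again without overlap, and was not called (log2 fold -0.48, adjusted p = 0.0654). Of 27 tested matrix glycoproteins and proteoglycans, which include Fn1, 1 rose for LP versus NP in KO, with a median of 0.35. It was Sparcl1, a secreted relative of SPARC, at 100.1 to 204 CPM in KO_LP, 69.6 to 106 CPM in KO_NP, 70.3 to 136 CPM in WT_LP and 69.1 to 139 CPM in WT_NP. It rose for LP versus NP in KO (0.82, adjusted p = 0.0250) and for KO versus WT on LP (0.72, adjusted p = 0.0492).

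In the TGF beta pathway, 27 genes for ligands, receptors and regulators were tested, and this list includes Tgfb1. Of the 27, 3 rose for LP versus NP in KO, with a median log2 fold of 0.22 and 22 positive. Tgfbr1, the type I receptor kinase, was at 30.8 to 42.0 CPM in KO_LP, against 24.2 to 30.3 CPM in KO_NP, and at 24.6 to 33.4 CPM in WT_LP, against 26.1 to 36.8 CPM in WT_NP. KO_LP and KO_NP did not overlap, while WT_LP and WT_NP did, and the log2 fold in KO was 0.33 (SE 0.0972, edgeR adjusted p = 0.0438). Acvrl1, a type I receptor best known from endothelium, had a log2 fold of 0.43 (adjusted p = 0.0443), and Tgif1, a repressor of SMAD-driven transcription, one of 0.63 (adjusted p = 0.0479), which was 0.38 without KO_LP 6. Eng, encoding the co-receptor endoglin, fell by 0.42 for KO versus WT on LP (adjusted p = 0.0253). Of 12 genes known to respond to TGF beta 0 were called in KO, with 9 positive and a median of 0.37. The responsive genes with the lowest p, Skil, Tgfbi and Cdkn1a, had log2 folds of 0.38, 0.48 and 0.89 (adjusted p = 0.0689, 0.0831 and 0.132), and that of Cdkn1a was 0.24 without KO_LP 6.

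**Figure D5:**
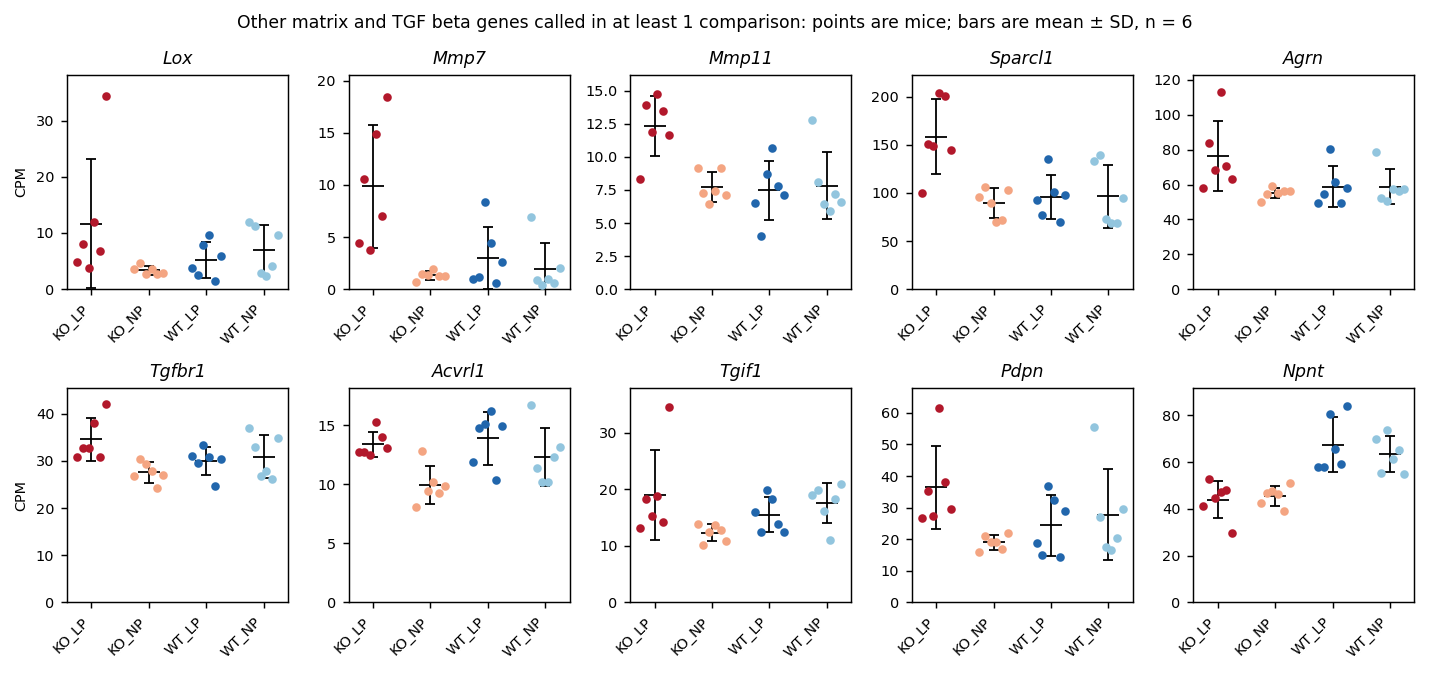
CPM (y axis, 1 panel per gene) of 10 other matrix, TGF beta and fibroblast genes called in at least 1 comparison, in KO_LP, KO_NP, WT_LP and WT_NP; points are mice and bars are mean ± SD over 6 mice. KO_LP lies wholly above KO_NP for Mmp7 (3.75 to 18.5 against 0.652 to 1.90 CPM), Tgfbr1 and Pdpn, and Npnt is lower in KO_LP than in WT_LP without overlap.

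Of 7 genes for PDGF ligands and receptors, which include Pdgfrb, 0 were called for LP versus NP in KO, with a median of 0.37. Pdgfra, the receptor of resident fibroblasts, had a log2 fold of 0.41 (edgeR adjusted p = 0.156) and Pdgfa, a ligand, one of 0.34 (adjusted p = 0.219). Pdgfc, another ligand, fell by 0.59 for KO versus WT on LP (adjusted p = 0.00940), with 7.89 to 10.1 CPM in KO_LP and 11.7 to 14.7 CPM in WT_LP, without overlap. Fibroblast and pericyte markers, 19 tested, include Col1a1, Col1a2, Col3a1 and Pdgfrb, and had a median of 0.41 for LP versus NP in KO. Of them 1 rose. It was Pdpn, podoplanin, at 26.7 to 61.7 CPM in KO_LP and 15.9 to 21.9 CPM in KO_NP (log2 fold 0.95, adjusted p = 0.0470), a gene that podocytes also express. Dcn, decorin, and Rgs5, a pericyte marker, had log2 folds of 0.52 (adjusted p = 0.137) and 0.37 (adjusted p = 0.141). Of 11 smooth muscle and myofibroblast markers, which include Acta2, 0 were called and the median was 0.08. Of 7 mesangial markers, which include Pdgfrb, 6 were positive for LP versus NP in KO, with a median of 0.29. The 1 negative marker, Igfbp5, fell by 0.55 (adjusted p = 0.0472), with 114 to 192 CPM in KO_LP and 184 to 260.1 CPM in KO_NP.

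For LP versus NP in WT 0 genes of these lists were called, with list medians of 0.04 for fibrillar collagens, 0.03 for crosslinking, -0.16 for proteases, -0.01 for TGF beta pathway genes and -0.31 for TGF beta responsive genes. For LP versus NP in KO 7.17% of all 15165 tested genes were called, and no excess of the lists over that share was tested. The lists of matrix, TGF beta, fibroblast and mesangial genes, with the tested numbers given above, held 10 calls there (Agrn, Sparcl1, Lox, Mmp7, Mmp11, Tgfbr1, Acvrl1, Tgif1, Pdpn and Igfbp5). Each of these 10 was lost without KO_LP 4 (adjusted p from 0.0614 to 0.153) and without KO_NP 5 (0.0541 to 0.102), and also with the immune covariate (0.211 to 0.760), with no change of sign. For KO versus WT on LP 2.93% of all tested genes were called. Among the list calls there, Npnt and Pdgfc were kept in all 24 omissions of a single library. Eng was kept in 21, Lama5 in 18, Mmp11 in 16 and Sparcl1 in 6. With the immune covariate Npnt kept its call and Pdgfc did not.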

How the data were processed

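The authors deposited raw counts (reads per gene) and a normalized signal, found on checking to be those counts over 1 size factor per library. Per the labels, RNA was made into Lexogen QuantSeq libraries (3′ ends) and read as 50-base forward reads. The submitters' processing notes name GRCm38 and DESeq2 1.22.2, with no step given. No source used here names the aligner or counter. Deposited genes have mean counts of 3 or more. The files gave 14208 symbols, GENCODE M21 gave 2668 more and the coordinates, and 45 identifiers had none.

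Counts were tested with edgeR 4.0.16 in R 4.3.3: filterByExpr (1756 genes below it), TMM, 1 robust quasi-likelihood fit of 4 group means over 24 libraries, two-sided tests of 5 comparisons, and Benjamini-Hochberg adjustment over 15165 genes. SE is the log2 fold over the root of F. Log2 CPM has a prior count of 2, and ratios of CPM have 0.5 added. The fit was tested on simulated data for LP versus NP in KO (14978 genes): 53 of 100 genes changed 1.5-fold and 70 of 100 changed 2-fold were called, and 5 unchanged genes. The changed genes were drawn at random. The median SD of the 10 genes was above that of all tested genes in KO_LP, WT_LP and WT_NP, so these shares need not hold for them. The biological coefficient of variation was 19.6%. The number of mice limits the precision.

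The genes, the 20 lists beside them and the rule for naming genes were chosen with earlier results of these data known. The rule names the 10 genes, up to 3 of each list by p in LP versus NP in KO, list genes called elsewhere, and the 5 genes most correlated with Col1a1 and Timp1. Correlations used 100000 resamples over all 24 libraries without regard to group, so differences between group means enter their p-values. Alternatives were DESeq2 1.42.0 size factors and Wald test, other filters (none; at least 5 CPM in 6 libraries), only the compared libraries, limma 3.58.1 voom with quality weights, limma on log2 of the normalized values plus 1, an immune covariate, 1 surrogate variable (sva 3.50.0), and libraries left out. Labels give no batch.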

Additional observations from a re-analysis of the deposited data

Results flagged for a closer look

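Of 40 combinations of gene and group, 7 had a library whose distance from the next one took up an unusually large share of its group's range (Dixon's test), and in all 7 it was the highest. Chance gives about 5% of groups where values are normal and independent. These values were CPM without logs, and the flags came from WT_LP 3 and WT_NP 1 on genes that vary together. No excess over chance can therefore be read from them. In WT_LP, WT_LP 3 was at 101 CPM for Col1a1, where the other mice reached 37.5 CPM, and at 94.2 CPM for Col3a1, where they reached 37.9 CPM. The other 5 concern WT_NP 1. This mouse was at 118 CPM for Col1a1 (others up to 32.8), 270 CPM for Col1a2 (up to 99.3), 123 CPM for Col3a1 (up to 28.9), 47.9 CPM for Fn1 (up to 20.1) and 260 CPM for Vim (up to 101).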

How the results depend on the processing

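No paired analysis was possible because the replicate numbers were given in accession order and only name mice. Genes called for LP versus NP in KO (1087) numbered 1846 with DESeq2, 1693 with limma voom, 26 with the immune covariate, 2 with 1 surrogate variable, 36 without WT_NP 1, KO_LP 4 and KO_LP 6, and 122 (without KO_NP 5) to 2006 (without KO_LP 1) with single libraries left out. For LP versus NP in WT (0) they were 16, 6 and 1 with DESeq2, voom and the covariate, and 0 to 2 with 1 library left out. For the difference (0) DESeq2 called 117. For KO versus WT on LP (445) the counts were 161 with the compared libraries alone, 910 with DESeq2, 877 with voom, 179 with the covariate, 234 with the surrogate variable, 200 without the 3 libraries and 180 to 733 (without WT_LP 1 and WT_LP 3). For KO versus WT on NP (87) they were 246 with DESeq2, 140 with voom and 52 to 151 (without KO_NP 1 and KO_LP 6). Of the 10 genes (0 called), LP versus NP in KO called 1 with the 5 CPM filter (Tgfb1 not tested there), with DESeq2, with voom and without KO_LP 1, KO_LP 2, WT_NP 1 or WT_NP 2 (each Pdgfrb), and 2 with the KO libraries alone (Pdgfrb, Timp1). KO versus WT on LP called 2 with the covariate, Col1a2 reversed to -0.70 (adjusted p = 0.0184) and Tgfb1, and 1 with the surrogate variable (Tgfb1); the cause was not tested. Member folds changed sign in 19 of 339 recomputed values for LP versus NP in KO and in 55 of 339 in WT. These values include refits without a library of the other genotype, which hardly move a fold, so the counts do not measure stability. For LP versus NP in KO 9 of 10 genes turned negative with the immune covariate and 9 with the surrogate variable. Ratio differences with 1 library left out ran for Col1a1 to Col1a2 from -0.04 to 0.09 (KO) and -0.11 to 0.11 (WT), for Col3a1 to Col1a1 from -0.14 to 0.12 and -0.08 to 0.11, and for Col4a1 to Col4a2 from -0.17 to -0.09 and -0.06 to 0.01.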
